A study of Homo sapiens with 95 samples.

Results

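The genes described here are 46 genes of DNA replication and mitosis, chosen by symbol from the 23895 genes counted in every well. They comprised 21 S-phase genes and 25 mitotic genes. A mean of more than 1 count per well was reached by 44 of them, 19 S-phase and 25 mitotic. The genes below it were TYMS, the enzyme that makes thymidylate, with a mean of 0.439 counts, and E2F1, a transcription factor of the G1/S transition, with 0.939 counts. E2F1 still passed the count filter within 4 of the comparisons below and in the tests of a response between populations that reuse their wells. E2F1 was called in none of these, and TYMS was tested in none.

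The cells were AALE, a human bronchial epithelial line that has been immortalized. RNA of each well was read near the 3′ ends of transcripts (3′DGE) and counted by unique molecular identifiers (UMIs), tags that let copies of 1 molecule be counted once. The 95 wells held 8 populations of these cells. NRF2 (the product of NFE2L2), FGFR1, NRG1 or PIK3CA was overexpressed and compared with HcRed, a vector carrying only a reporter, and FAT1 or CDKN2A was knocked out by CRISPR and compared with GFP, cells given the pSpCas9-EGFP plasmid PX458 without a guide RNA. Each population received DMSO, the vehicle, or 1 of 3 tobacco-related chemicals: a condensate of cigarette smoke (CSC, 24 µg/ml), the polycyclic hydrocarbon benzo[a]pyrene (BaP, 173 µM) or the nitrosamine NNK (490 µM), after plating to confluency in multi-well plates. The study calls the wells of a condition biological replicates. The sources used here do not say whether they were cultured separately before plating or whether a population was a clone, so that p-values measure the spread between these wells. Total counts per well ran from 692446 to 1895735, with a mean of 1427513 under DMSO, 1290086 under CSC, 1213795 under BaP and 1180450 under NNK.

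Before S phase, the MCM2 to MCM7 helicase is loaded at origins with CDC6 and CDT1 and is activated with CDC45 and GINS. PCNA clamps the polymerases to DNA, and ribonucleotide reductase (RRM1 and RRM2), thymidine kinase (TK1) and DUT supply its building blocks. Mitotic genes peak later: cyclin B and CDK1 drive entry into mitosis, aurora kinases and kinesins build the spindle, and the anaphase-promoting complex ends it. Both classes are active in dividing cells and are repressed in cells that leave the cycle, S-phase genes largely through E2F sites and mitotic genes through the cell cycle homology region (CHR), often paired with CCAAT boxes. In bulk wells, fewer dividing cells and less of a transcript per cell cannot be told apart.

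The promoters of 3 mitotic and 3 S-phase genes on which the results turn are shown to let these elements be seen. Each runs from 250 bases before to 50 bases after a start site, from RefSeq on GRCh38.p14, on the strand of the gene. Capitals mark 3 kinds of element, each searched on both strands. The CHR was searched as TTTGAA and also with the variant TTCGAA. The second element was the CCAAT box. The E2F letters were TTTGGCGC, with the variants TTTCCCGC and also TTTGCCGC and lastly TTTCGCGC. Neighbouring or overlapping matches run together in capitals. CENPF (chr1:214602945-214603244, + strand), TOP2A (chr17:40417847-40418146, − strand) and MKI67 (chr10:128126374-128126673, − strand) are the mitotic genes, and MCM6 (chr2:135876394-135876693, − strand), PCNA (chr20:5126573-5126872, − strand) and RRM2 (chr2:10122489-10122788, + strand) the S-phase genes. PCNA and RRM2 each had a second RefSeq window, not printed.
CENPF: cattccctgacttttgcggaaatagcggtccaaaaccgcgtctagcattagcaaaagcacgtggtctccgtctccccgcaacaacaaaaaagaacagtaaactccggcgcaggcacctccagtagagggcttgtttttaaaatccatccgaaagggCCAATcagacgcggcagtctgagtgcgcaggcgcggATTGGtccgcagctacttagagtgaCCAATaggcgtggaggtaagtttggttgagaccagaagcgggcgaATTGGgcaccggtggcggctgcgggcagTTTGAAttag
TOP2A: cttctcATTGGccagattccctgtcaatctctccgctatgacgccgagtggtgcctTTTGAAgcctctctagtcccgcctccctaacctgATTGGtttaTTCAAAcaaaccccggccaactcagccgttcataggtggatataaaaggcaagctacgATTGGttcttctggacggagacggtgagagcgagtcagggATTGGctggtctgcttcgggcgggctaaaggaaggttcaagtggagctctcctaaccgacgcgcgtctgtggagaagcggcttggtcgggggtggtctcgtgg
MKI67: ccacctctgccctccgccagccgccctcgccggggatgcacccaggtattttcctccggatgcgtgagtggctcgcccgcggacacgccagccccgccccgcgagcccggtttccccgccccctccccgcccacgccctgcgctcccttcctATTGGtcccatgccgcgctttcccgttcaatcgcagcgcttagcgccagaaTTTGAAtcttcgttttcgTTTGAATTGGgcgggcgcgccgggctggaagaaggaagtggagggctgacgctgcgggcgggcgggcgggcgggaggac
MCM6: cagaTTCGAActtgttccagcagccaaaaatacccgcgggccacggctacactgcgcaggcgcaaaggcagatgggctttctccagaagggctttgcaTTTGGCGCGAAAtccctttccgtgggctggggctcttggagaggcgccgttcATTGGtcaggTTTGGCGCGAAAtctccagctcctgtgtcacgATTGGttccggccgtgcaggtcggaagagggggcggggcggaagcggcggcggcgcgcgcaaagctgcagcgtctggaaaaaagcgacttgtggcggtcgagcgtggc
PCNA: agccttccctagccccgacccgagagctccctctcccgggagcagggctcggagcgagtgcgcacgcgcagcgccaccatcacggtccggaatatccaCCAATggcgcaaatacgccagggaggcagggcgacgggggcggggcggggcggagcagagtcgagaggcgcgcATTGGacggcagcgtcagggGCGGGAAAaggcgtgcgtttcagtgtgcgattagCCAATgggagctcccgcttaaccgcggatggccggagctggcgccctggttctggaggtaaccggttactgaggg
RRM2: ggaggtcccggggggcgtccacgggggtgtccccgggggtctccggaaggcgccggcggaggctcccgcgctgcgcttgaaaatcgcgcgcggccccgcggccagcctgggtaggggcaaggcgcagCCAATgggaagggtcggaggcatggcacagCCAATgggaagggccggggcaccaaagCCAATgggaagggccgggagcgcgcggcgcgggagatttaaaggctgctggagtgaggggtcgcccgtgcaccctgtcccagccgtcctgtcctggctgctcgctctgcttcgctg

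Each of the 3 mitotic windows held CHR letters and at least 1 CCAAT box and no E2F letters. MCM6 held E2F letters at 2 places, PCNA at 1 and RRM2 at none, and MCM6 also held TTCGAA far from its start. A RefSeq window was given for 18 S-phase and 19 mitotic genes. CHR letters lay in a window of 15 of the 19 mitotic genes (78.9%) and 3 of the 18 S-phase genes (16.7%), against 19.5% of all 27305 genes with windows of this length. E2F letters lay in 13 of 18 S-phase genes (72.2%), 2 of 19 mitotic genes (10.5%) and 3.99% of all genes. CCAAT boxes lay in 94.7% of mitotic genes, 66.7% of S-phase genes and 39.7% of all genes. A CHR and a CCAAT box shared a window in 73.7% of mitotic, 11.1% of S-phase and 7.85% of all genes. These are matches of letters, not measured sites. No window was given for MCM4, MCM5, CCNE2, FOXM1, UBE2C, AURKA, TTK, BIRC5 or TPX2.

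The main comparisons used the 82 wells with a replicate number of 1 digit. The other 13 wells carried numbers of 2 digits, and their values stand apart in the closing section. The overexpressed genes were higher in every DMSO well of their population than in every HcRed well: NFE2L2 at 139 to 163 counts per 1000000 counted in a well (CPM) against 36.8 to 51.9, FGFR1 at 21.6 to 24.8 against 1.71 to 7.35, NRG1 at 101 to 115 against 0 to 0.774 and PIK3CA at 5.96 to 16.8 against 0.774 to 4.28. FAT1 stood at 0 to 3.4 CPM in its knockout against 5.86 to 11.6 in GFP. CDKN2A, the inhibitor of the cyclin D kinases, stood at 19 to 23.8 CPM in its knockout against 34.9 to 38.6 in GFP, but at 20.5 to 23.5 in HcRed, and a 3′ tag need not report an edit elsewhere in a gene, so that its level does not check the knockout. All 8 epithelial markers (KRT5, KRT14, KRT17, KRT6A, TP63, EPCAM, CDH1 and ITGA6) were counted in all 82 wells. Of the 8 markers of other cell types, FOXJ1 (ciliated cells) was at 0 in all 82 wells, COL3A1 (fibroblasts) in 81, SCGB1A1 (club cells) in 80, PTPRC (leukocytes) in 78, COL1A1 (fibroblasts) in 32, PECAM1 (endothelium) in 17, ACTA2 (smooth muscle) in 16 and CD68 (macrophages) in 0. The highest wells of COL1A1, PECAM1 and ACTA2 were at 2.32, 5.42 and 4.58 CPM, and CD68 ran from 4.2 to 37.2. The summed level of these 8 was 7.55 to 29.15 CPM under DMSO, 12.3 to 41.7 under CSC, 8.51 to 33.55 under BaP and 11.2 to 36.1 under NNK. CD68 was higher under CSC by 0.88 (SE 0.11, adjusted p = 3.87e-09) and under BaP by 0.43 (SE 0.11, adjusted p = 0.00512), and gave 0.15 under NNK (SE 0.11, adjusted p = 0.476).

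The epithelial markers moved as well. Their summed level was 461 to 1271 CPM under DMSO, 437.7 to 1130 under CSC, 398.5 to 1029 under BaP and 422.2 to 1130 under NNK. Of the 8, 2 fell under CSC, 4 under BaP and 4 under NNK, where 2 rose. Among populations under DMSO the sum was 1179 to 1271 CPM in HcRed, 1004 to 1182 in NRF2, 792.7 to 965 in FGFR1, 632.2 to 718.5 in NRG1 and 581.2 to 659.5 in PIK3CA, and 731 to 900.5 in GFP, 616.1 to 829.5 in CDKN2A and 461 to 525.7 in FAT1. The numbers that fell against the control were 2 in NRF2, 3 in FGFR1, 4 in NRG1, 4 in PIK3CA, 2 in CDKN2A, 5 in FAT1 and 3 in GFP, with 1 that rose in NRF2, FGFR1, PIK3CA, CDKN2A and FAT1 each and 0 in NRG1 and GFP. KRT5, a keratin of basal cells, was lower under each chemical, by 0.46 under CSC (SE 0.055, adjusted p = 8.02e-10), 0.33 under BaP (SE 0.056, adjusted p = 6.5e-06) and 0.24 under NNK (SE 0.053, adjusted p = 0.000992). KRT5 and CD68 were named after their values were seen, and the part of these markers in the results below was not tested.

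The level of a class in a well is given as the mean log2 CPM over its genes, a description with no test. Mitotic genes were lower under every chemical in nearly every population. In 16 of the 17 pairs of a population and a chemical with 3 wells each, all treated wells lay below all DMSO wells of that population, by 0.04 (GFP under NNK) to 0.338 (PIK3CA under CSC) on the log2 scale. The exception was PIK3CA under NNK, where the wells overlapped and the means differed by −0.057. S-phase genes lay wholly below in 8 of the 17 pairs, among them 4 of the 5 CSC pairs and 1 of the 7 NNK pairs. HcRed cells under CSC showed the widest S-phase difference of the 17, from 5.38 to 5.05.

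**Figure D1:**
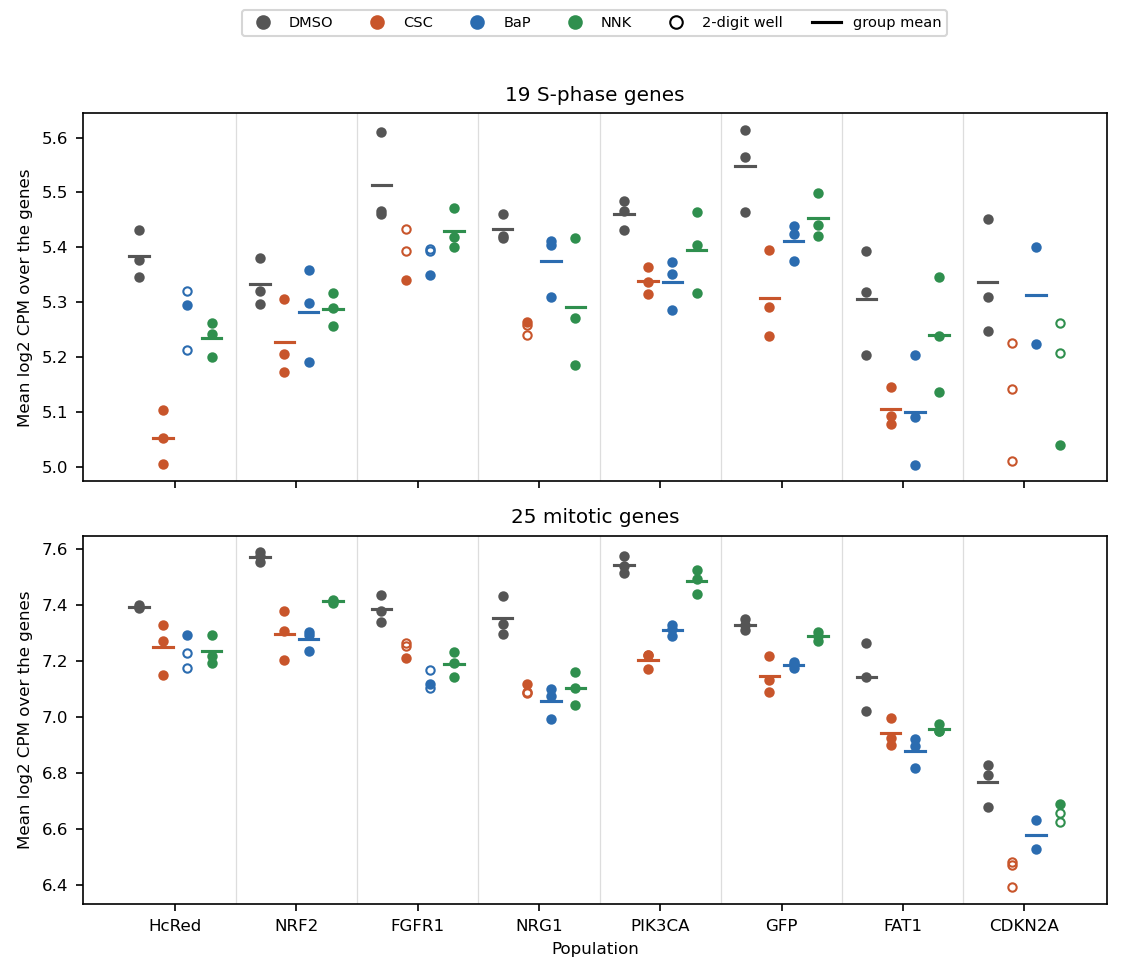
Mean log2 CPM over the 19 S-phase genes (upper panel) and the 25 mitotic genes (lower panel) in each of the 95 wells, by population and coloured by chemical, with open circles for wells with 2-digit numbers and bars for the means of filled wells. In the mitotic panel the filled DMSO wells lie above the filled treated wells of their population, apart from overlap in PIK3CA under NNK and a single CDKN2A well under NNK (6.69) that lies above the lowest CDKN2A DMSO well (6.68), and the DMSO wells of CDKN2A below those of all other populations.

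Whether a chemical moved each gene was tested across populations with limma and voom, with the population as a covariate, on all genes with a mean count above 1. Under CSC (5 populations, 15 wells against 15) 17 of the 25 mitotic genes and 5 of the 19 S-phase genes fell, against 2.86% of all genes tested. None of the 46 genes rose by limma, edgeR or DESeq2, nor at an unadjusted p under 0.05 (0 genes). Of all genes tested, 2.95% were called higher. All 25 mitotic changes were negative with a median of −0.20, 17 of 19 S-phase changes were negative with a median of −0.24, and the median over all genes was −0.00068. S-phase genes were counted less deeply (a median over genes of 47.7 counts per well against 160 for mitotic genes) and had larger standard errors, at a median of 0.0797 against 0.0524.

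CENPF, a kinetochore protein of late cycle cells, was at 223.5, 297 and 438.2 CPM (lowest, median and highest well) under CSC and 362.4, 399.4 and 521.2 under DMSO. Its change was −0.40 (SE 0.037, adjusted p = 1.78e-14), and the CSC wells lay below the DMSO wells in all 5 populations. MKI67, the Ki-67 antigen, stood at 59.6, 75.3 and 98.4 CPM against 82.8, 101.8 and 146.3. It fell by 0.47 (SE 0.057, adjusted p = 6.79e-10), again with no overlap in 5 of 5 populations. TOP2A, the topoisomerase that untangles sister chromatids, fell by 0.30 (SE 0.040, adjusted p = 1.14e-08), with no overlap in 3 populations. KIF20A, a kinesin of cytokinesis, fell by 0.40 (SE 0.053, adjusted p = 1.39e-08). By role, 7 of 8 spindle and kinetochore genes and 5 of 6 genes of cyclin B, CDK1 and their regulators fell. So did 2 of 6 kinase, checkpoint and passenger genes and 1 of 3 genes linked to the anaphase-promoting complex. CCNB1 (cyclin B1) fell by 0.14 (SE 0.029, adjusted p = 0.000381), and CDC20, an activator of that complex, gave −0.22 (SE 0.085, adjusted p = 0.126).

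Among S-phase genes under CSC, MCM6 (a helicase subunit) ran from 25.1 through 33 to 43.95 CPM, against 30.1, 48.6 and 59.0 under DMSO. Its change was −0.48 (SE 0.080, adjusted p = 4.91e-06), with no overlap in 4 of 5 populations. RRM2, the regulated subunit of ribonucleotide reductase, fell by 0.40 (SE 0.070, adjusted p = 2.09e-05), CDC45 by 0.28 (SE 0.068, adjusted p = 0.00332) and MCM4 by 0.24 (SE 0.059, adjusted p = 0.00452), and GINS2 was the fifth. PCNA gave −0.08 (SE 0.025, adjusted p = 0.0518) and MCM3 −0.04 (SE 0.060, adjusted p = 0.838). The 6 helicase subunits ran from −0.48 (MCM6) to −0.04 (MCM3), with a median of −0.27. Of further cell cycle genes listed beside these, 17 mitotic and 3 S-phase genes fell and none rose. HMGB2, a chromatin protein, fell by 0.45 (SE 0.034, adjusted p = 2.94e-18) and CDCA8, of the chromosomal passenger complex, by 0.46 (SE 0.075, adjusted p = 3.83e-06). CDKN1A (p21, an inhibitor of cyclin-dependent kinases) rose by 0.51 (SE 0.12, adjusted p = 0.0025) and CCND1 (cyclin D1) by 0.40 (SE 0.097, adjusted p = 0.00362), whereas RB1 fell by 0.62 (SE 0.14, adjusted p = 0.00104) and CDK6 by 0.53 (SE 0.13, adjusted p = 0.00338).

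Under BaP (5 populations, 15 wells against 15) 20 of 25 mitotic genes and 5 of 20 S-phase genes fell, against 4.12% of all genes. Here too none of the 46 genes rose by limma, edgeR or DESeq2, nor at an unadjusted p under 0.05 (0 genes). Of all genes tested, 5.04% were called higher. The mitotic median was −0.24 with 25 of 25 changes negative, and the S-phase median −0.07. All 8 spindle and kinetochore genes fell, with 5 of 6 kinase, checkpoint and passenger genes. CENPF was at 235, 269.4 and 391.3 CPM against 349.1, 396 and 521.2 under DMSO, a change of −0.45 (SE 0.034, adjusted p = 8.52e-18). TOP2A was at 215.1, 230.7 and 455.5 CPM against 296.3, 342.2 and 548, a change of −0.39 (SE 0.040, adjusted p = 4.87e-12). Both lay wholly below DMSO in 5 of 5 populations, although the pooled ranges overlap because the populations start from different levels. MKI67 fell by 0.54 (SE 0.066, adjusted p = 2.28e-09), KIF23 (a kinesin of the central spindle) by 0.34 (SE 0.049, adjusted p = 2.83e-07), CCNB1 by 0.17 (SE 0.027, adjusted p = 2.35e-06) and CDC20 by 0.40 (SE 0.088, adjusted p = 0.000635).

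The S-phase genes under BaP divided. MCM6 fell by 0.45 (SE 0.077, adjusted p = 1.15e-05), MCM7 by 0.24 (SE 0.058, adjusted p = 0.00311), GINS2 by 0.23 (SE 0.059, adjusted p = 0.00409) and TK1 by 0.36 (SE 0.093, adjusted p = 0.00596). RRM2 was the fifth, at −0.23 (SE 0.072, adjusted p = 0.0335), a call lost in 9 of the 30 fits that left out a well (adjusted p up to 0.0799). PCNA, at 718.3, 895.3 and 1316 CPM under BaP and 743.6, 987.1 and 1337 under DMSO, gave 0.0020 (SE 0.024, adjusted p = 0.976), the smallest standard error among the S-phase genes, and MCM3 gave −0.08 (SE 0.058, adjusted p = 0.478). Of the further genes, 17 mitotic genes fell, with ANLN (anillin, of the cleavage furrow) at −0.38 (SE 0.041, adjusted p = 5.79e-11) and CENPE at −0.47 (SE 0.060, adjusted p = 9.17e-09). Further S-phase genes gave 5 that fell, HELLS and ATAD2 first at −0.45 (SE 0.080, adjusted p = 2.37e-05) and −0.32 (SE 0.062, adjusted p = 0.000125), and 1 that rose, the replication protein A subunit RPA2, by 0.24 (SE 0.046, adjusted p = 0.000131). CDKN1A rose by 0.46 (SE 0.12, adjusted p = 0.0090), and CCND1 gave −0.07 (SE 0.096, adjusted p = 0.738).

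Under NNK (7 populations, 21 wells against 21) 8 of 25 mitotic genes and 2 of 20 S-phase genes fell, against 4.15% of all genes. None of the 46 genes rose by limma, edgeR or DESeq2, nor at an unadjusted p under 0.05 (0 genes). Of all genes tested, 3.07% were called higher. The medians were −0.13 for mitotic and −0.03 for S-phase genes. With library totals 16 genes were called, and with wells thinned to equal depth 6. Replicate 2 of NRG1 under NNK stood apart from its groupmates, with a chi-square per degree of freedom of 11.8 and 11.3 over genes, against 1.32 between the other pair of wells. In that well MKI67 was at 303.7 CPM against 61 and 63.6, CENPF at 522.1 against 254.9 and 229.7, and CCNB1 at 665.8 against 870.5 and 884.2, so that genes of one class moved in opposite directions there. Without it 18 cell cycle genes were called, against 19.9% of all genes, and they included the 10 called with it. Of these 18, 10 mitotic and 5 S-phase genes were lower and 2 mitotic and 1 S-phase gene higher.

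CENPF fell by 0.35 under NNK (SE 0.049, adjusted p = 3.79e-08), TOP2A by 0.30 (SE 0.048, adjusted p = 1.61e-06), MKI67 by 0.51 (SE 0.089, adjusted p = 1.77e-05) and TPX2, which targets aurora A to the spindle, by 0.26 (SE 0.060, adjusted p = 0.00204). The S-phase genes that fell were MCM6, by 0.42 (SE 0.078, adjusted p = 5.07e-05), and RRM2, by 0.32 (SE 0.069, adjusted p = 0.000797). CCNB1 gave −0.03 (SE 0.053, adjusted p = 0.826) and PCNA 0.03 (SE 0.050, adjusted p = 0.776). Further genes gave 9 mitotic and 3 S-phase genes that fell, among them ASPM at −0.56 (SE 0.096, adjusted p = 1.02e-05) and the origin recognition subunit ORC1 at −0.46 (SE 0.12, adjusted p = 0.00623). CDKN1A gave 0.25 (SE 0.11, adjusted p = 0.153), RB1 fell by 0.59 (SE 0.14, adjusted p = 0.00184) and CDKN2C rose by 0.51 (SE 0.15, adjusted p = 0.0176). Set side by side, CENPF gave −0.40, −0.45 and −0.35, MKI67 −0.47, −0.54 and −0.51 and MCM6 −0.48, −0.45 and −0.42 with CSC, BaP and NNK in that order. The CSC fit held FAT1, GFP, HcRed, NRF2 and PIK3CA cells, and the BaP fit held NRG1 in place of HcRed. The NNK fit held all populations but CDKN2A. The 3 comparisons thus share only part of their DMSO wells, and the doses differ. By the well positions in the labels each row held 1 chemical, so that chemical and row cannot be told apart. No comparison between chemicals was made.

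**Figure D2:**
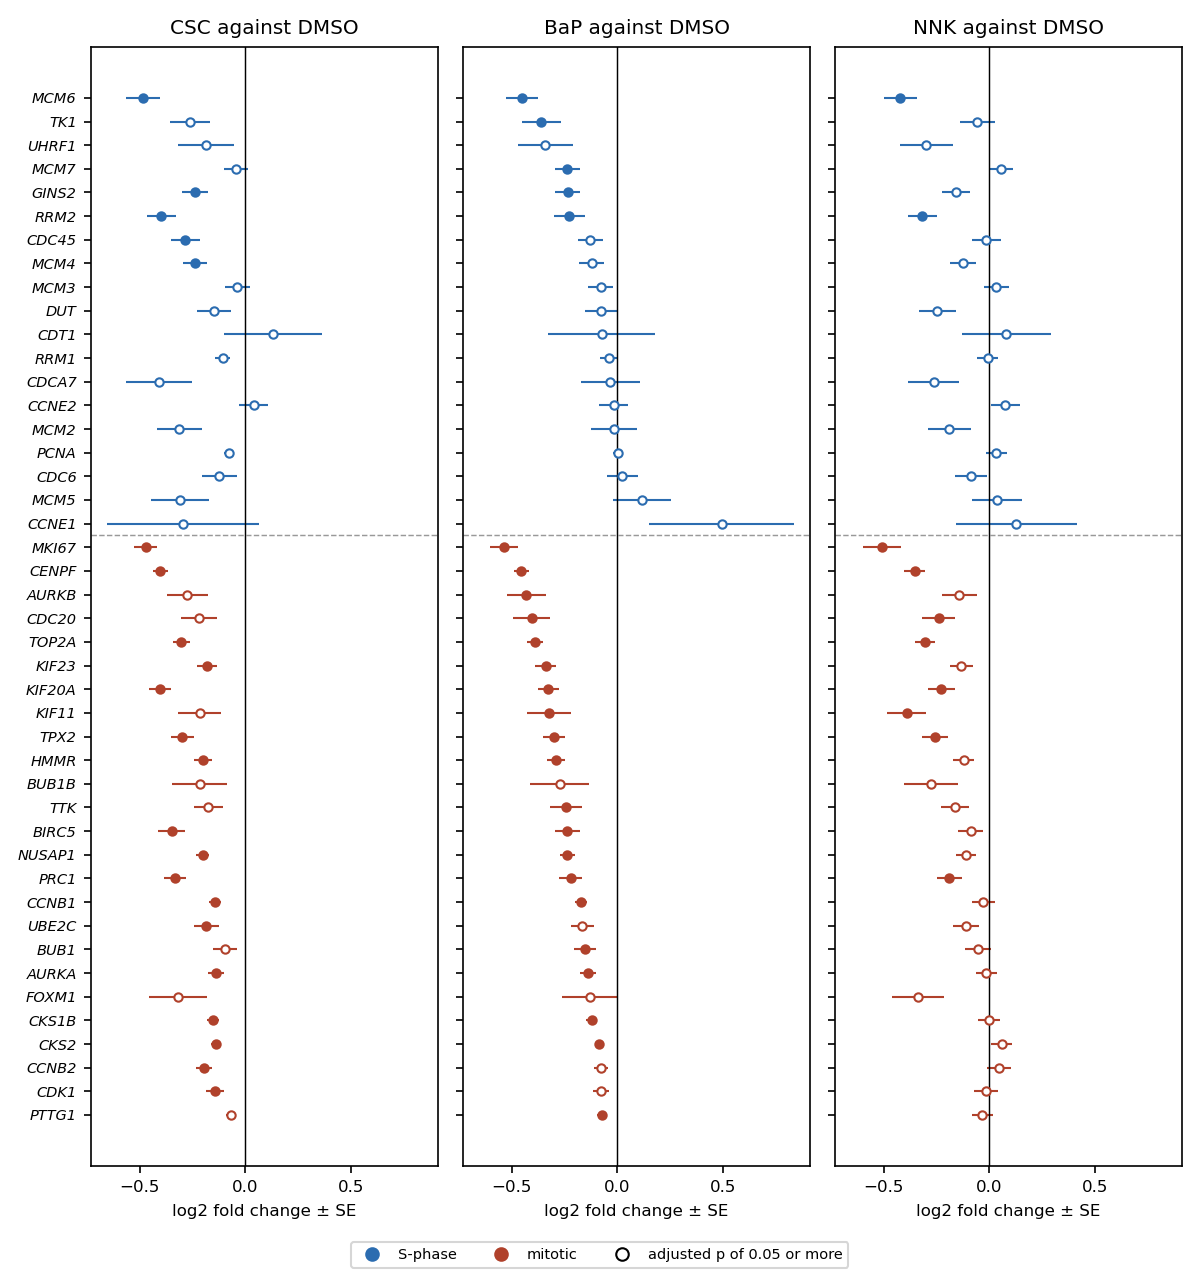
Log2 fold change against DMSO with its standard error for the 44 genes under CSC, BaP and NNK, S-phase genes in blue above the dashed line and mitotic genes in red, filled where the adjusted p was under 0.05. The filled points all lie left of 0, with CENPF, MKI67, TOP2A and MCM6 filled in all 3 panels and PCNA near 0 in each.

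Population by population, the mean of 16 mitotic genes was lower under CSC in all 5 populations, of 19 genes under BaP in all 5 and of 8 genes under NNK in all 7. The wells of CENPF, MKI67 and CKS1B (a CDK subunit) under CSC, and of CENPF and TOP2A under BaP, lay below the DMSO wells in every population. In PIK3CA cells under CSC 25 of 25 mitotic genes had the lower mean and 21 had no overlap. In GFP cells under NNK 14 of 25 had the lower mean, 5 had all wells below DMSO and 1, AURKA, had all wells above. Whether a response differed between populations was tested with a moderated F test of the interaction. It called no cell cycle gene under CSC (0 with limma, edgeR and DESeq2; 5 mitotic genes at an unadjusted p under 0.05), with 0.106% of all genes called, and none under NNK (0 with limma, edgeR and DESeq2; 3 mitotic genes at an unadjusted p under 0.05), with 0.0176% called. Under BaP, with 0.106% of all genes called, it called NUSAP1, a spindle microtubule protein (F = 9.56, adjusted p = 0.00498). At an unadjusted p under 0.05 there were 11 of 25 mitotic and 2 of 20 S-phase genes. The share of all genes at that p is not given for any chemical, so these counts are not read as a result about the classes. The fits also held different populations, and the counts were not compared between chemicals. NUSAP1 went from 567 ± 18.7 CPM (SD, n = 3) to 422 ± 8.21 in FAT1 cells, from 585 ± 53.3 to 423 ± 24.4 in NRG1 and from 799 ± 40 to 621 ± 26.1 in NRF2, log2 ratios of −0.43, −0.47 and −0.36. In GFP it went from 821 ± 6.72 to 782 ± 17.6 and in PIK3CA from 677 ± 59.8 to 620 ± 24.5, ratios of −0.07 and −0.13, with overlap in PIK3CA. Without a filter on low counts the call was lost (adjusted p = 0.0784). NUSAP1 overlaps OIP5-AS1 on its own strand and OIP5 on the other in the hg19 annotation (chromosome 15, 41612992 to 41673248), so that reads of these genes may not be separable.

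**Figure D3:**
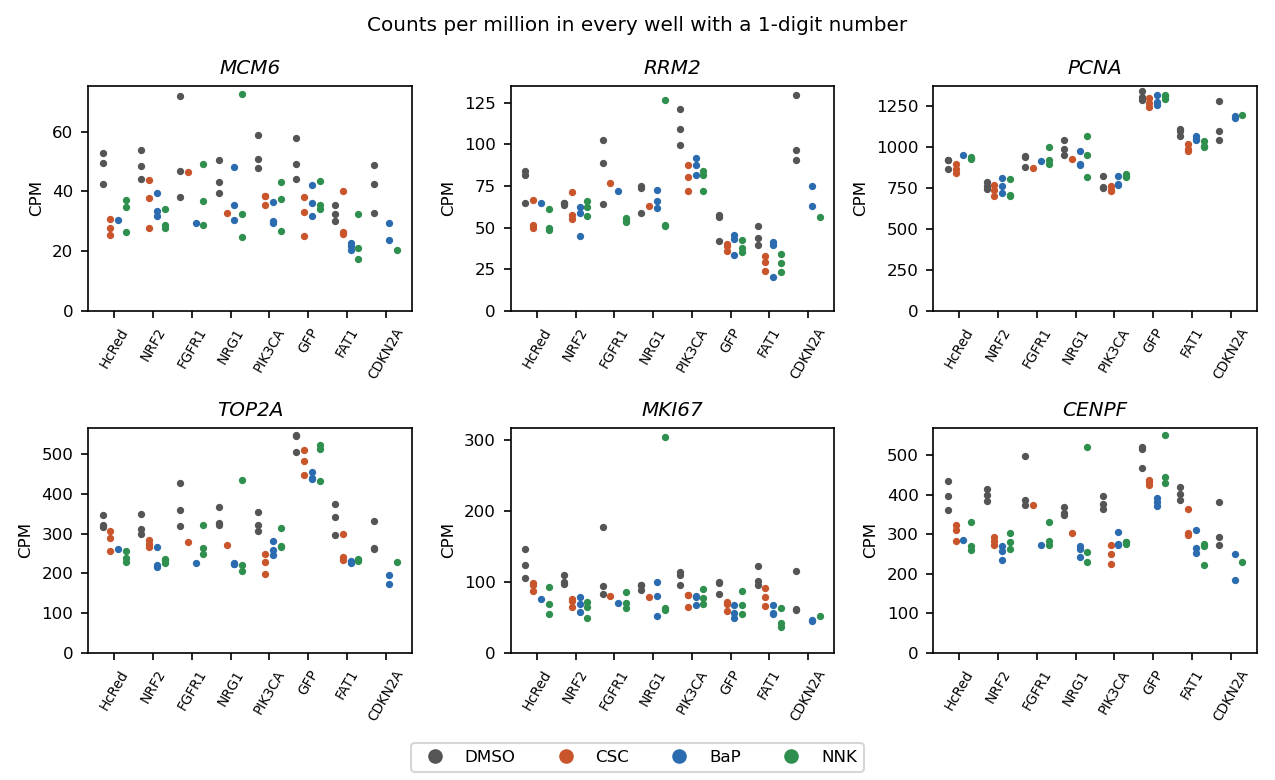
CPM of MCM6, RRM2, PCNA, TOP2A, MKI67 and CENPF in each of the 82 wells with 1-digit numbers, by population and coloured by chemical, each panel with its own axis from 0. Under DMSO TOP2A and PCNA are highest in GFP cells and RRM2 is highest in PIK3CA and CDKN2A cells, and a single NRG1 well under NNK stands high for MCM6, RRM2, TOP2A, MKI67 and CENPF.

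Under DMSO the mitotic level ordered the populations as NRF2 (7.57), PIK3CA (7.54), HcRed (7.39), FGFR1 (7.39), NRG1 (7.35), GFP (7.33), FAT1 (7.14) and CDKN2A (6.77). The wells of NRF2 and PIK3CA overlapped each other and lay above those of the rest, FGFR1 and NRG1 overlapped with each other and with both controls, HcRed lay above GFP, FAT1 lay below these and CDKN2A below FAT1. S-phase levels were closer, from 5.55 in GFP to 5.31 in FAT1. Each engineered population was then compared with its own control under DMSO, 3 wells against 3, and by the labels each population filled 3 adjacent wells of 1 row, so that population and position cannot be told apart. Comparisons with HcRed share its 3 wells and those with GFP share its 3 wells. GFP was also compared with HcRed, the other control.

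NRF2 cells had 9 of 25 mitotic genes higher than HcRed and none lower, against 3.39% of all genes higher and 1.52% lower. No S-phase gene was called (0 of 19 by limma, edgeR and DESeq2; 4 at an unadjusted p under 0.05). With library totals in place of TMM factors, which moved the median of all genes by −0.10, 6 mitotic genes were higher and 1 mitotic and 1 S-phase gene lower. A single fit over all groups called 5 genes in all and the fit over all chemicals 14. AURKA, aurora kinase A of the spindle poles, was at 551.6, 521.2 and 504.7 CPM in the NRF2 wells and 366.2, 369.9 and 381.8 in HcRed, a change of 0.59 (SE 0.064, adjusted p = 1.82e-11). PTTG1 (securin) rose by 0.31 (SE 0.038, adjusted p = 1.17e-09), NUSAP1 by 0.43 (SE 0.054, adjusted p = 1.52e-09), KIF20A by 0.74 (SE 0.10, adjusted p = 3.49e-08) and CCNB1 by 0.25 (SE 0.047, adjusted p = 4.82e-05). The 3 NRF2 wells stood above the 3 HcRed wells for each of these genes. MKI67 gave −0.20 (SE 0.11, adjusted p = 0.407), TOP2A 0.05 (SE 0.072, adjusted p = 0.807) and PCNA −0.15 (SE 0.050, adjusted p = 0.0758). Among further genes 6 mitotic genes rose, HMGB2 by 0.44 (SE 0.043, adjusted p = 3.53e-13), and of 35 further S-phase genes 2 rose and 2 fell. PRIM1, a primase subunit, rose by 0.52 (SE 0.097, adjusted p = 5.93e-05), whereas RPA3 fell by 0.21 (SE 0.049, adjusted p = 0.00194) and ORC1 by 0.95 (SE 0.28, adjusted p = 0.0311). CCND1 fell by 1.11 (SE 0.20, adjusted p = 2.62e-05), from 59, 44.1 and 38.7 CPM in HcRed to 16.5, 21.1 and 21.8.

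PIK3CA cells had 7 mitotic and 2 S-phase genes higher than HcRed and none lower, against 3.36% of all genes higher and 2.05% lower. With library totals, 5 mitotic and 2 S-phase genes were higher and 1 S-phase gene lower, and the fit over all chemicals called 18 genes in all. TPX2 was at 196.8, 200 and 173.2 CPM against 107, 147.8 and 119.3, a change of 0.67 (SE 0.10, adjusted p = 7.57e-07). CKS2, a CDK subunit, rose by 0.30 (SE 0.040, adjusted p = 3.1e-08), AURKA by 0.49 (SE 0.069, adjusted p = 1.35e-07) and UBE2C, the ubiquitin-conjugating enzyme of the anaphase-promoting complex, by 0.57 (SE 0.095, adjusted p = 6.06e-06). RRM2 was at 121.2, 99.3 and 109.4 CPM against 83.9, 64.7 and 81.3, a change of 0.60 (SE 0.12, adjusted p = 0.000465), and CDC45 rose by 0.59 (SE 0.13, adjusted p = 0.0015). The PIK3CA wells lay above the HcRed wells for all 6 of these genes. MKI67 gave −0.16 (SE 0.11, adjusted p = 0.509), TOP2A 0.05 (SE 0.075, adjusted p = 0.787) and PCNA −0.16 (SE 0.055, adjusted p = 0.0627). CCND2 (cyclin D2) rose by 1.02 (SE 0.20, adjusted p = 0.000252). Of further genes, 9 mitotic and 3 S-phase genes were higher, and 1 mitotic and 1 S-phase gene lower. HMGB2 rose by 0.41 (SE 0.048, adjusted p = 2.32e-10) and RPA3 fell by 0.30 (SE 0.053, adjusted p = 1.87e-05).

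Few differences from HcRed were called in FGFR1 and NRG1 cells. In FGFR1 cells none of the 46 genes was called (0 by limma, edgeR and DESeq2). At an unadjusted p under 0.05 there were 1 S-phase and 2 mitotic genes. Of all genes tested, 0.501% were called higher and 0.413% lower. CCND1 fell by 1.76 (SE 0.24, adjusted p = 4.87e-10) and CCND2 rose by 0.98 (SE 0.22, adjusted p = 0.00303), and MKI67 wells read 94.9, 83.1 and 178.1 CPM. FGFR1 DMSO replicate 3 stood apart from its groupmates, with a chi-square per degree of freedom of 2.3 and 2.62 against 1.17 between the others. Standard errors of mitotic genes were larger here, at a median of 0.13 against 0.0949 for NRF2. Without that well MKI67 and NUSAP1 were called. In NRG1 cells PCNA was at 987.1, 946.7 and 1041 CPM against 864.2, 916.2 and 920.8, a rise of 0.21 (SE 0.045, adjusted p = 0.000951), and PTTG1 at 1220, 1159 and 1156 against 1418, 1424 and 1437, a fall of 0.20 (SE 0.038, adjusted p = 0.000148). With 2.08% of all genes higher and 0.998% lower, 1 of 20 S-phase genes and 1 of 25 mitotic genes is near the background. In a single fit over all groups, PCNA and PTTG1 were not called (adjusted p = 0.416 and 0.434). With library totals PCNA was not called (adjusted p = 0.0507), 3 mitotic genes were lower and the median of all genes moved by −0.11.

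CDKN2A knockout cells had 18 of 25 mitotic genes lower than GFP and none higher, and 7 S-phase genes lower and 2 higher, against 9.22% of all genes lower and 8.64% higher. The medians were −0.57 and −0.35. With library totals, which moved the median of all genes by 0.13, 14 mitotic and 4 S-phase genes were lower and 1 mitotic and 2 S-phase genes higher. NUSAP1 was at 414.5, 393.2 and 415.2 CPM against 828.4, 814.9 and 821 in GFP, a change of −1.12 (SE 0.11, adjusted p = 1.39e-15). TOP2A was at 265, 332.7 and 260.7 CPM against 548, 505.9 and 546.1, a change of −1.02 (SE 0.11, adjusted p = 1.48e-12). KIF20A was at 53.55, 61.2 and 55.95 CPM against 119.2, 120.5 and 130.5, a change of −1.23 (SE 0.15, adjusted p = 1.46e-10), and CCNB2 (cyclin B2) fell by 0.83 (SE 0.12, adjusted p = 1.35e-08). All 6 genes of cyclin B, CDK1 and their regulators fell, as did all 3 linked to the anaphase-promoting complex (CDC20, UBE2C and PTTG1). So did 5 of 8 spindle and 2 of 6 kinase, checkpoint and passenger genes. MKI67, at 61.4, 115.9 and 59.8 CPM against 99.9, 98 and 82.8, fell by 0.42 (SE 0.16, adjusted p = 0.0499) in wells that overlapped, and the call was lost in 5 of the 6 fits that left out a well (adjusted p up to 0.300). CDKN2A DMSO replicate 2, the highest of the 3 wells for MKI67, TOP2A and RRM2, stood apart from its groupmates with a chi-square per degree of freedom of 2.76 and 2.89, against 1.2 between the others. Without it 16 mitotic genes were lower, and 7 S-phase genes lower and 2 higher.

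Of the 19 listed S-phase genes tested in CDKN2A cells, 7 were lower and 2 higher. The 2 that were higher are near the background of 8.64% of all genes. RRM2 was at 90.4, 129.6 and 96.7 CPM against 56.2, 57.3 and 41.8 in GFP, a rise of 0.91 (SE 0.16, adjusted p = 5.56e-06), and TK1 rose by 0.60 (SE 0.20, adjusted p = 0.0252), although that call was lost in 3 of the 6 fits that left out a well (adjusted p up to 0.136). MCM7 was at 54.7, 68.4 and 43.9 CPM against 89, 108 and 107, a fall of 0.99 (SE 0.16, adjusted p = 4.0e-07), with RRM1 down by 0.67 (SE 0.12, adjusted p = 7.61e-06), CDCA7 by 1.45 (SE 0.33, adjusted p = 0.000364) and PCNA by 0.32 (SE 0.095, adjusted p = 0.00954). The call of PCNA was lost in 3 of those 6 fits (adjusted p up to 0.109). Of the 2 subunits of ribonucleotide reductase, RRM2 was thus higher and RRM1 lower than in GFP, each with no overlap of wells. GFP was itself lower than HcRed for RRM2, and genes near RRM2 on its chromosome were higher as well (both below). CCNE1 (cyclin E1) read 3.91, 5.04 and 3.18 CPM against 0.839, 2.49 and 0.733 and was not called (1.34, SE 0.66, adjusted p = 0.155). Of 35 further S-phase genes 9 were lower and 0 higher, the PCNA-binding factor KIAA0101 by 1.04 (SE 0.11, adjusted p = 8.04e-14) and the clamp loader subunit RFC3 by 0.94 (SE 0.18, adjusted p = 3.88e-05). Further mitotic genes gave 11 lower and 2 higher, CKAP2 falling by 1.32 (SE 0.15, adjusted p = 1.09e-11) and the condensin subunit SMC4 rising by 0.64 (SE 0.13, adjusted p = 6.45e-05). CCND1 was at 49.65, 54.7 and 50.9 CPM against 8.39, 14.95 and 11.7, a rise of 2.03 (SE 0.26, adjusted p = 3.44e-10), and RB1 fell by 1.06 (SE 0.27, adjusted p = 0.00237), a call lost in 1 of the 6 fits (adjusted p = 0.0696).

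FAT1 knockout cells had 9 mitotic genes lower than GFP and 1 higher, and 5 S-phase genes lower, against 7.7% of all genes lower and 6.39% higher. Their medians were −0.26 and −0.30. Of these 15 calls DESeq2 made 9 and a single fit over all groups 7, whereas the fit over all chemicals called 29 genes. TOP2A was at 342.2, 375.5 and 296.3 CPM, a fall of 0.60 (SE 0.073, adjusted p = 1.34e-10), and NUSAP1 at 545.3, 578.2 and 577.1, a fall of 0.48 (SE 0.061, adjusted p = 3.49e-10). CKS2 fell by 0.26 (SE 0.048, adjusted p = 1.2e-05) and CCNB2 by 0.40 (SE 0.078, adjusted p = 4.43e-05). HMMR, a spindle protein and hyaluronan receptor, was at 236.8, 266.2 and 243 CPM against 136.8, 152 and 156.1, a rise of 0.80 (SE 0.095, adjusted p = 3.52e-11). Of S-phase genes MCM3 fell by 0.59 (SE 0.13, adjusted p = 0.000221), PCNA by 0.21 (SE 0.049, adjusted p = 0.000675), MCM6 by 0.55 (SE 0.17, adjusted p = 0.0155) and MCM5 by 0.84 (SE 0.29, adjusted p = 0.0379), MCM6 and MCM5 losing the call in 3 and 5 of the 6 fits that left out a well (adjusted p up to 0.112 and 0.171). The call of PCNA was lost without GFP DMSO replicate 3 (adjusted p = 0.0584). MKI67 gave 0.25 (SE 0.12, adjusted p = 0.169) and CCNB1 0.0060 (SE 0.057, adjusted p = 0.966). HMGB2 fell by 0.89 (SE 0.058, adjusted p = 8.24e-25).

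**Figure D4:**
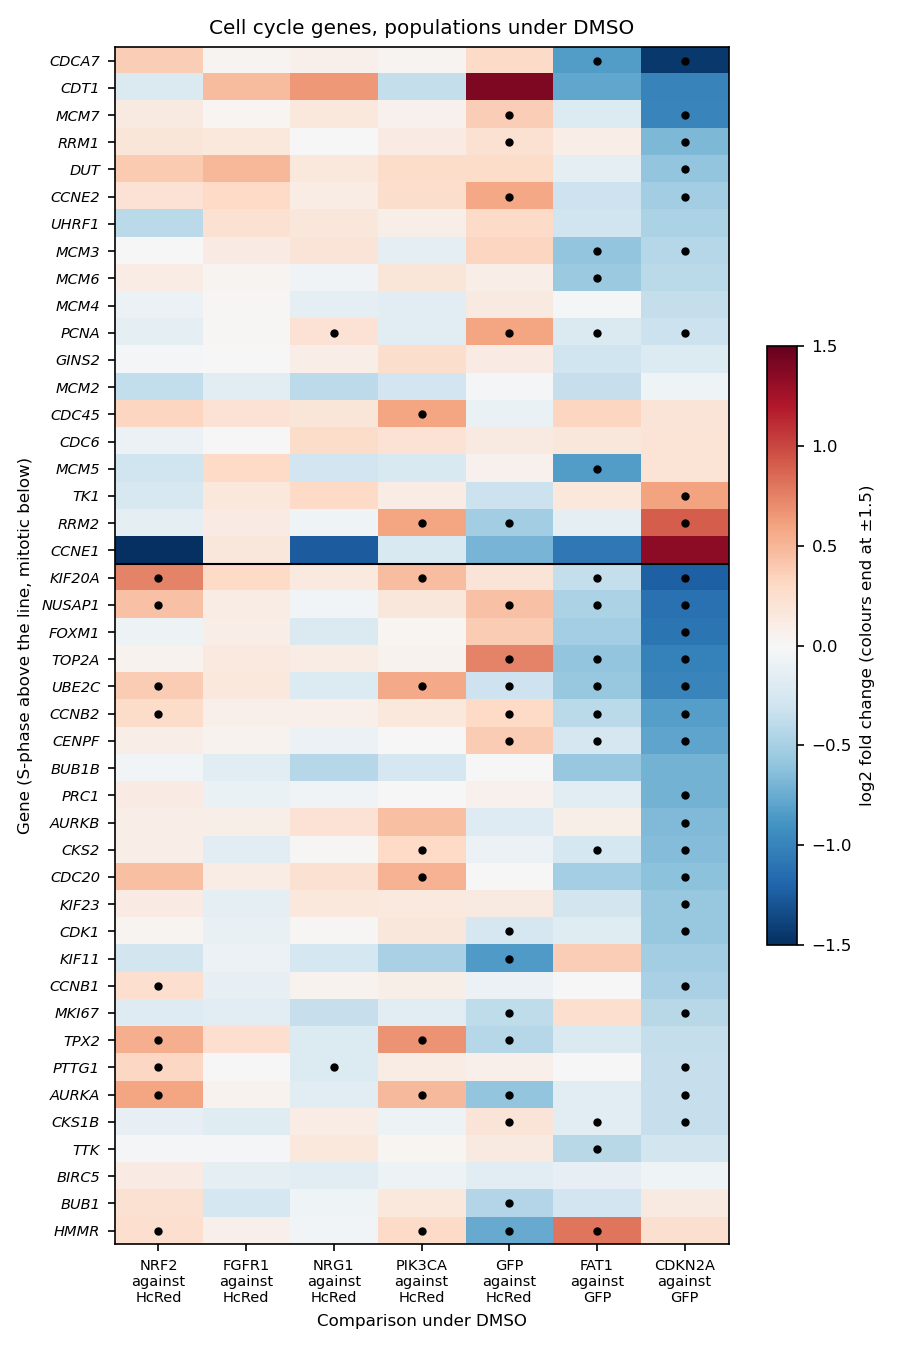
Log2 fold change of the 44 genes (rows) in the 7 comparisons of populations under DMSO (columns), S-phase genes above the line and mitotic genes below, with a dot where the adjusted p was under 0.05 and colours ending at ±1.5. The CDKN2A column is blue for most mitotic genes, and TOP2A, NUSAP1 and PCNA are red for GFP against HcRed and blue in the columns of FAT1 and CDKN2A against GFP.

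The GFP control itself differed from HcRed, in 13 mitotic genes (5 higher, 8 lower) and 5 S-phase genes (4 higher, 1 lower), against 5.94% of all genes higher and 4.86% lower. With library totals 5 mitotic genes were higher and 10 lower, and 2 S-phase genes higher and 1 lower. When all groups were fitted together, 10 cell cycle genes were called. TOP2A, at 318.3, 348.5 and 322.2 CPM in HcRed, was 0.74 higher in GFP (SE 0.065, adjusted p = 1.4e-12), PCNA 0.59 higher (SE 0.043, adjusted p = 3.04e-15) and NUSAP1 0.44 higher (SE 0.051, adjusted p = 6.16e-09). HMMR fell by 0.76 (SE 0.088, adjusted p = 5.17e-09) from 249, 255.9 and 276.5 CPM, AURKA by 0.59 (SE 0.074, adjusted p = 3.45e-08) and RRM2 by 0.52 (SE 0.15, adjusted p = 0.0157). The call of RRM2 was lost in 3 of the 6 fits that left out a well (adjusted p up to 0.1997). The TOP2A wells of FAT1 cells (296.3 to 375.5 CPM) overlapped the HcRed wells and lay below the GFP wells, and their HMMR wells (236.8 to 266.2) overlapped the HcRed wells and lay above the GFP wells. These populations were not tested against HcRed. CDKN2A cells lay below both controls for NUSAP1 (393.2 to 415.2 CPM, against 599.4 to 657.4 in HcRed), KIF20A (53.55 to 61.2, against 101 to 131.7) and CKS2 (940.4 to 1049, against 1590 to 1686). For TOP2A, in contrast, the CDKN2A wells lay below the GFP wells but overlapped the HcRed wells (318.3 to 348.5). PCNA, called lower than GFP in both knockouts, was the gene 0.59 higher in GFP than in HcRed. RRM2 in CDKN2A cells (90.4 to 129.6) lay above both GFP (41.8 to 57.3) and HcRed (64.7 to 83.9). CCND1, at 38.7 to 59 CPM in HcRed, 49.65 to 54.7 in CDKN2A and 8.39 to 14.95 in GFP, overlapped between HcRed and CDKN2A and was low in GFP. CCND2 was near 0 in both GFP (0, 0.83 and 0 CPM) and CDKN2A (0.56, 0 and 0.64). It stood at 17.0 to 23.5 CPM in HcRed and 14.2 to 17.75 in FAT1.

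Because neighbouring genes can move together, each cell cycle gene was set beside the other tested genes within 5 Mb of it on hg19. Under the chemicals the neighbours stayed near 0, their medians running from −0.075 to 0.072 under CSC, −0.126 to 0.123 under BaP and −0.149 to 0.084 under NNK. Less the median of its neighbours, the mitotic median was −0.201 under CSC, −0.265 under BaP and −0.146 under NNK, and 25, 24 and 21 of the 25 genes lay below their neighbours. Between populations the neighbours moved more, from −0.815 to 0.732 in CDKN2A against GFP. RRM2 (chromosome 2, 10260825 to 10351851, hg19), 0.91 higher there, had 22 neighbours with a median of 0.62, of which 13 were higher and 0 lower. MCM7 (−0.99) had 68 neighbours with a median of −0.55 and CKS2 (−0.65) had 26 with a median of −0.81, whereas the neighbours of TOP2A (0.10), KIF20A (0.05) and CENPF (0.26) did not fall with them. CENPF itself was 0.79 lower in CDKN2A cells. Less the neighbours, the medians in CDKN2A cells were −0.49 for mitotic and −0.35 for S-phase genes.

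The pattern varied from gene to gene elsewhere. HMMR in FAT1 cells (0.80) had 11 neighbours on chromosome 5 with a median of 0.56. On chromosome 20, the neighbours of TPX2 had medians of 0.24 in NRF2 cells, 0.25 in PIK3CA and −0.41 in GFP against HcRed, and those of UBE2C 0.25, 0.25 and −0.52. AURKA, also on chromosome 20, was 0.59 higher in NRF2 cells with neighbours at 0.08 and 0.49 higher in PIK3CA cells with neighbours at −0.29. RRM2 in PIK3CA cells (0.60) had neighbours at −0.23. The genes named beside their neighbours were chosen after their values were seen, and the part of neighbouring genes in these results was not tested further.

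**Figure D5:**
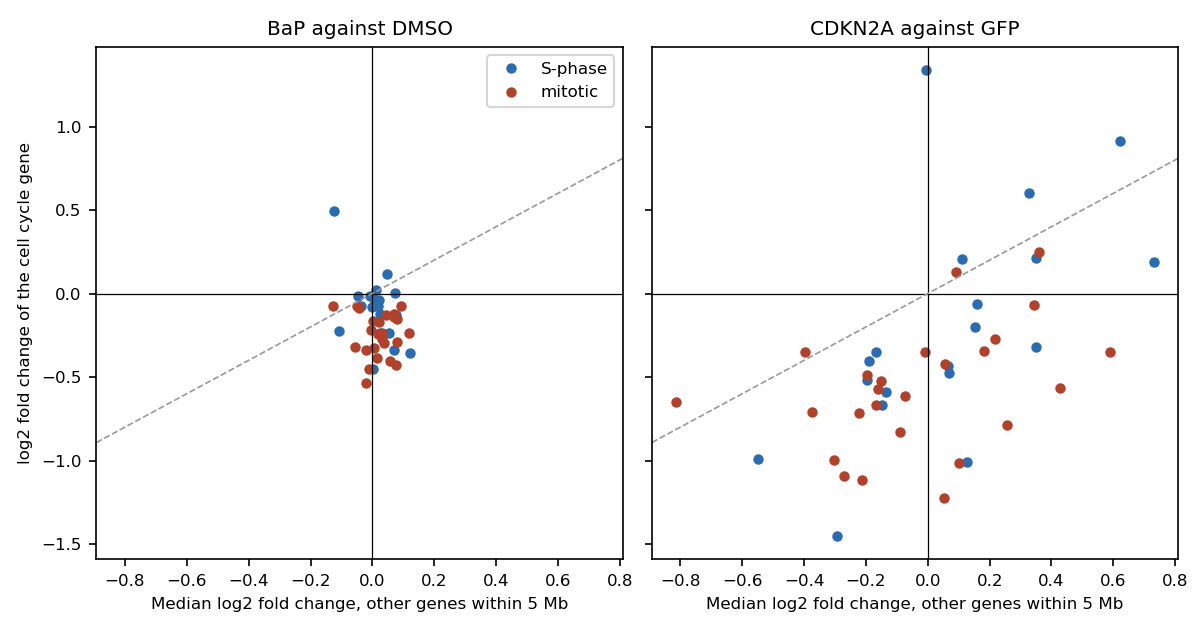
Log2 fold change of each cell cycle gene against the median log2 fold change of the other tested genes within 5 Mb, for BaP against DMSO (left) and CDKN2A against GFP under DMSO (right), S-phase genes in blue, mitotic in red, with a dashed line of equality. Under BaP the neighbours lie between −0.126 and 0.123 while mitotic genes lie below 0, and in CDKN2A cells the neighbours spread from −0.815 to 0.732.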

How the data were processed

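Per the labels and methods, the authors pooled barcoded 3′DGE libraries and aligned reads to RefSeq transcripts of hg19 with BWA 0.7.10. The deposited values are UMI counts per gene and well, in which reads with the same UMI and barcode were counted once per gene. From these counts, counts per 1000000 (CPM) and class levels (mean log2 CPM, prior count 2) were computed with edgeR 4.0.16 TMM factors for the levels and library totals for CPM of single genes. Genes with a mean count above 1 in the wells fitted were tested with limma 3.58.1 (voom, TMM, two-sided, R 4.3.3), adjusted over all genes by the Benjamini-Hochberg method and called at 0.05. Fits under a chemical held the population as a covariate, and fits between populations held 6 DMSO wells. The procedure was tested on simulated counts without outlier wells, with planted changes larger than most of those reported here. Smaller changes were not simulated. By the well positions in the labels, each row held 1 chemical, each population took 3 columns of 1 row for each chemical, and each column held 2 populations in alternate rows. The 13 wells with 2-digit numbers were left out because the labels do not say whether they are separate cultures.

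The genes, the further lists and the tests were chosen with earlier results of these data known. Genes named are, per class and direction, up to 4 called with the smallest adjusted p, up to 2 from each further list, and MKI67, TOP2A, CCNB1, CDC20, PCNA, MCM3, TYMS, RRM2, CCNE1, CDKN1A, CDKN2A and CCND1 as fixed examples. Alternatives were library totals, DESeq2 size factors (RLE), no count filter, edgeR, DESeq2 1.42.0, a single fit, all chemicals, a replicate block, all 95 wells and each well left out. Thinning to equal depth and subtraction of neighbouring genes were added after seeing the data. 1 of the further genes is not reported here by name.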

Additional observations from a re-analysis of the deposited data

Results flagged for a closer look

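The response of NUSAP1 to BaP differed between the 5 populations by the interaction test of limma (adjusted p = 0.00498). Its wells were lower under BaP in FAT1, NRG1, NRF2 and GFP cells and overlapped in PIK3CA cells.

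The 13 wells with 2-digit numbers entered no comparison above, and their class levels stood below every DMSO well of their population in 11 of the 12 cases examined. None of these differences was tested. Under CSC the S-phase and mitotic levels differed from DMSO by −0.1 and −0.127 in FGFR1 cells, by −0.21 and −0.318 in CDKN2A cells and by −0.183 and −0.267 in NRG1 cells. Under BaP they differed by −0.117 and −0.194 in HcRed cells and by −0.118 and −0.25 in FGFR1 cells. Under NNK the mitotic level of CDKN2A cells differed by −0.127, and the S-phase level overlapped with DMSO.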

How the results depend on the processing

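Of 6190 recomputed values, 5708 kept their direction and side of the threshold or moved little, 404 lost the call of a single gene (of 5308 such recomputations), 78 counts, medians or levels moved and 0 reversed a call. A gene given no adjusted p in a refit was counted among those that kept their side. Medians and levels that changed sign were counted by the size of the move and never as reversed. The cause was not tested in any case. With library totals, NNK called 16 cell cycle genes and FGFR1 1, and the S-phase and mitotic medians were −0.179 and 0.027 in NRF2, 0.03 and −0.119 in NRG1, 0.029 and 0.083 in PIK3CA and −0.251 and −0.461 in CDKN2A, with a mitotic median of −0.06 in GFP. Differences in level were then −0.206 for mitotic genes under NNK, −0.135 and 0.088 for S-phase and mitotic genes in NRF2, −0.02 and −0.114 in NRG1, 0.021 and 0.09 in PIK3CA, −0.103 and −0.452 in CDKN2A and −0.109 for mitotic genes in GFP. With a prior count of 0.5 the S-phase level in NRF2 differed by −0.104. The S-phase median in NRF2 was −0.025 with edgeR and −0.031 with DESeq2, and in NRG1 0.143 with DESeq2, which called 9 genes in FAT1. A single fit called 5 genes in NRF2, 0 in NRG1, 7 in FAT1 and 10 in GFP. With all chemicals, 14 genes were called in NRF2 (medians 0.059 and 0.084), 2 in FGFR1, 0 in NRG1 (medians 0.042 and −0.134), 18 in PIK3CA (medians 0.155 and 0.06) and 29 in FAT1, and the S-phase median in GFP was 0.208. With thinned wells NNK called 6 genes, the mitotic medians were 0.095 in NRF2 and −0.041 in GFP and the S-phase median 0.073 in FGFR1. Less neighbouring genes, the S-phase and mitotic medians were 0.041 and 0.19 in NRF2, 0.196 and 0.063 in NRG1 and 0.219 and 0.027 in GFP, with a mitotic median of −0.49 in CDKN2A. The BaP interaction called 0 genes without a filter and 2 with edgeR.

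Leaving out 1 well at a time, NNK called 9 to 18 genes (18 without NRG1 NNK replicate 2) and FGFR1 0 to 2 (MKI67 and NUSAP1 without FGFR1 DMSO replicate 3). Mitotic medians ran from −0.694 to −0.512 in CDKN2A, −0.113 to 0.025 in GFP, 0.104 to 0.172 in NRF2 and 0.096 to 0.153 in PIK3CA, and S-phase medians from −0.119 to 0.021 in NRF2, 0.089 to 0.146 in NRG1 and 0.072 to 0.163 in PIK3CA. Same-numbered wells did not deviate together (72 pairs, correlations from −0.057 to 0.049). With a replicate block the count of called genes went from 22 to 23 under CSC, 25 to 24 under BaP, 9 to 11 in NRF2, 2 to 3 in NRG1, 27 to 28 in CDKN2A and 18 to 19 in GFP, and the S-phase median in NRF2 was −0.026 with the block. TYMS was below the count filter and was not tested.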
